A study of Mus musculus with 12 samples.

Results

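The transcriptome described here is that of the resting peritoneal lavage: 4 bulk RNA sequencing libraries, of 12 in the study, from C57BL/6J mice that received no injection. They were chosen by their labels alone (no injection, endogenous cells), and no measured value entered the choice. The other 8 libraries come from mice given the ovarian cancer line ID8 (defb29/Vegf-a), or that line with FSHR, into the peritoneal cavity, 4 of each, and are not compared here. Cells were washed from the cavity with 8 mL of phosphate-buffered saline and pelleted without sorting. Lavage of the injected mice was on day 7, and the labels give no separate day for the uninjected ones. The series text describes the replicates as biological. Neither it nor the labels give the age or sex of the mice, or whether a library is 1 mouse or a pool. With a single group there is nothing to test, so levels, spreads and counts are given as descriptions over 4 libraries, numbered as in the labels.

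The healthy peritoneal cavity holds a resident immune population that floats free in its fluid. Its main macrophage, the large peritoneal macrophage, depends on the transcription factor GATA6 and on retinoic acid made by the tissue, and carries F4/80 (encoded by Adgre1) and TIM-4 (Timd4). Beside it are smaller macrophages derived from monocytes, B-1 cells, which secrete natural IgM from a restricted repertoire, conventional B-2 cells, T cells, NK cells and connective tissue mast cells.

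Total counts ran from 50327658 to 57991979 per library, and 19631 to 20200 genes had a count. Levels are CPM, read counts scaled to a common library size, with TMM (trimmed mean of M values) factors. Ribosomal RNA took 3.80 to 4.18% of counts and genes of the mitochondrial genome 2.49 to 2.73%. A count of 0 allows a level of up to 3 counts, which is 0.0511 to 0.0595 CPM. Such limits cover counting error only, and between 72.9 and 74.7% of gene counts from 1 to 9 were even numbers, against 49.3 to 49.98% of counts over 500, so counting error at low counts is larger than the counts alone give. Variation was described over the 12283 genes with a mean of at least 1 CPM. Of these, 719 (5.85%) were at least 2-fold apart between the highest and the lowest library, and the median ratio of highest to lowest was 1.21. Without library 2 the 719 became 382. Library 1 was the highest for 26.4% of these genes, library 2 for 26.3%, library 3 for 24.7% and library 4 for 22.6%. The lowest value fell in library 1 for 28.2%, in library 2 for 28% and in library 3 for 21.7%.

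The 5 genes that mark the lavage were all present. Adgre1 had 1565, 1369, 1397 and 1427 CPM in libraries 1 to 4, and Timd4 had 807, 696, 744 and 676. Both macrophage genes stayed within 1.19-fold across the libraries, less than the median gene. Cd79a, the signalling chain of the B cell receptor, had 357, 391, 464 and 496 CPM, lowest in library 1 and highest in library 4. Cpa3, the mast cell carboxypeptidase, had 395, 411, 267 and 292 CPM, with libraries 1 and 2 above libraries 3 and 4. Cd3e, a chain of the T cell receptor complex, had 5.19, 15.0, 10.9 and 9.82 CPM and was 2.90-fold apart, the only marker past 2-fold. Per kilobase of exon the order of mean levels was Adgre1 (445 CPM), Timd4 (336), Cd79a (293), Cpa3 (225) and Cd3e (2.51). The first 4 lie within a 2-fold range of each other, while Cd3e was lower by more than 10-fold.

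Macrophage products led the most abundant genes. Fn1, which encodes the matrix protein fibronectin, had 48001, 41731, 42247 and 39927 CPM, the highest mean of all genes. Lyz2, lysozyme of myeloid cells, had 21127, 16637, 17910 and 18831 CPM. The rest of the 20 most counted genes included Apoe, which carries lipid, at 9267 ± 1050 CPM (SD, n = 4), and Prg4, the lubricant proteoglycan 4, at 8492 ± 813. Also among the 20 were the complement component C4b at 6542 ± 508 CPM, the lipoxygenase Alox15 at 4822 ± 584, transferrin (Trf) at 3606 ± 334 and Thbs1, thrombospondin 1, at 3089 ± 336. Lymphoid and antigen-presenting cells were represented there by Ighm, the IgM constant region, at 3418 ± 438 CPM and by Cd74, the invariant chain of MHC class II, at 3288 ± 419. The others included the cytoskeletal genes Ahnak and Actb, the elongation factors Eef1a1 and Eef2, the mitochondrial genes mt-Co1, mt-Cytb, mt-Nd5 and mt-Nd1, and CT010467.1, annotated as ribosomal RNA. The 10 most counted genes of each library together took 15.4% ± 0.442 of its counts (SD, n = 4).

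Length changes that order. Per kilobase of exon, Lyz2 had a mean of 14154 CPM and Apoe 4334, above Fn1 with 3678, whose merged exons span 11685 bases. Among the 20 highest genes per kilobase were also Cd74 (1959), Ighm (1812), B2m (1663), the light chain of MHC class I, and Igkc (1572), the kappa light chain constant region. Both Lyz2 and C4b have a near-identical copy with which reads can be shared. Lyz1, the copy of Lyz2, had 551, 421, 515 and 590 CPM, and C4a, the copy of C4b, had 2.47, 1.79, 2.39 and 1.49.

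By summed counts, which favour long genes, the large peritoneal macrophage list took the largest share of the cell type lists. Its 18 genes took 7.28, 6.56, 6.40 and 6.12% of all counts in libraries 1 to 4. The mean was 6.59% ± 0.494 (SD, n = 4), and Fn1 made up 65.2% of that. Without Fn1 the share was 2.29%, below the mean of 3.79% for the list of genes that all macrophages share. None of the 18 was 2-fold apart between libraries, which for so few genes is near the 5.85% of all genes. At a mean of at least 5 CPM, 146 of 9903 genes were 2-fold apart. The median ratio of highest to lowest on the list was 1.24, against 1.21 for all genes. Library 1 was highest for 16 of the 18 (26.4% of all genes), or 15 when scaled by library size alone. In bulk RNA, more cells of a type and more RNA per cell cannot be told apart. Gata6, which defines this macrophage, had 99.6, 83.1, 98.0 and 89.7 CPM, 1.20-fold apart. Its partners on the list kept similar narrow ranges: Icam2, an adhesion molecule, had 236 to 313 CPM, Vsig4, a complement receptor, had 277 to 357, and Selp, P-selectin, had 743 to 917. Tgfb2, a growth factor of the TGF-beta family, varied most on the list, with 602, 649, 449 and 549 CPM, highest in library 2.

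Genes that all macrophages share took 4.18, 3.40, 3.65 and 3.92% of counts, and Lyz2 was 49.2% of that sum. None of these 18 was 2-fold apart, which for so few genes is near the 5.85% of all genes. Library 1 was highest for 15 of the 18 (26.4% of all genes), and library 2 was lowest for 15 (28%). Csf1r, the receptor for macrophage colony-stimulating factor, had 1287, 996, 1118 and 1105 CPM. The integrin chain Itgam had 889 to 1055 CPM, the apoptotic cell receptor Mertk 130 to 165, and the transcription factor Spi1 125 to 143. Fcgr1, the high-affinity IgG receptor, was the lowest member at 14.7 to 20.9 CPM. Of genes chosen after their values were seen, the scavenger receptor Msr1 had 744 to 870 CPM and Padi4, a protein-citrullinating enzyme best known from neutrophils, had 919, 773, 795 and 740. Padi4 thus followed the macrophage genes, highest in library 1 and 1.24-fold apart.

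Complement genes formed a large block. The 15 listed genes, 4 of which also stand on a macrophage list, took 1.54, 1.35, 1.34 and 1.44% of counts, and 46.2% of that was C4b. The 3 chains of C1q, which start the classical pathway, had similar levels: C1qa 980 to 1237 CPM, C1qb 1050 to 1299 and C1qc 1079 to 1339. Cfp (properdin, a regulator of the alternative pathway, 1394 to 1680 CPM) was above C3, the central component, at 366 to 404 CPM, and per kilobase that order held with mean levels of 867 and 73.6 CPM. The proteases of the classical pathway were low, with C1ra at 18.4 to 20.2 CPM, C2 at 1.76 to 2.47 and C1s1 at 0.460 to 0.685. Library 1 was highest for 10 of the 14 members past 1 CPM (26.4% of all genes). None of the 14 was 2-fold apart, which for so few genes is near the share of all genes (5.85%).

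Coagulation genes were led by 1 factor. The 12 listed genes took 0.335, 0.292, 0.302 and 0.299% of counts, and F5, the cofactor of the prothrombin-cleaving enzyme, made up 73.5% of them with 2408, 2199, 2241 and 2178 CPM. F10, the enzyme that F5 assists, had 188 to 235 CPM, and F7, which activates F10, had 25.1 to 34.1. F3, tissue factor, the starter of the cascade, stayed low with 1.17, 0.545, 0.441 and 2.06 CPM, the only member of the 10 past 1 CPM that was 2-fold apart. The transglutaminase F13a1 had 512, 261, 415 and 419 CPM, lowest in library 2. Proc, protein C, had no count in any library.

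Of 21 chemokine ligands, 15 passed 1 CPM, and the list took 0.255, 0.219, 0.237 and 0.233% of counts. Ccl6 made up 36.3% of the list with 917, 719, 904 and 903 CPM, and Ccl9 had 417 to 512. Cxcl13, which draws B cells into the cavity and also stands on the macrophage list, had 594, 586, 480 and 491 CPM. Ccl2, the monocyte attractant, had 2.65 to 4.54 CPM, Cxcl1 had 3.01 to 6.07, and the interferon-induced Cxcl9 and Cxcl10 at most 0.555 and 0.331. Of the 15, 3 were 2-fold apart, namely Cxcl1, Cxcl2 and Ccl22, against 5.85% of all genes. Cxcl2, a neutrophil attractant, had 22.2, 27.2, 47.2 and 33.8 CPM, highest in library 3.

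Retinoic acid genes included receptors, a synthesis enzyme and a breakdown enzyme. The 13 listed genes took 0.0480, 0.0452, 0.0424 and 0.0428% of counts. Rxra had 116 to 143 CPM, Rarg 98.8 to 137 and Rara 65.3 to 80.3. Aldh1a2, which makes retinoic acid, had 47.5, 37.6, 54.3 and 57.5 CPM, while its relatives Aldh1a1 and Aldh1a3 reached at most 0.198 and 0.159. Cyp26a1, which degrades retinoic acid, had 14.5, 9.67, 9.41 and 9.20 CPM. None of the 8 members past 1 CPM was 2-fold apart, which for so few genes is near the 5.85% of all genes.

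**Figure D1:**
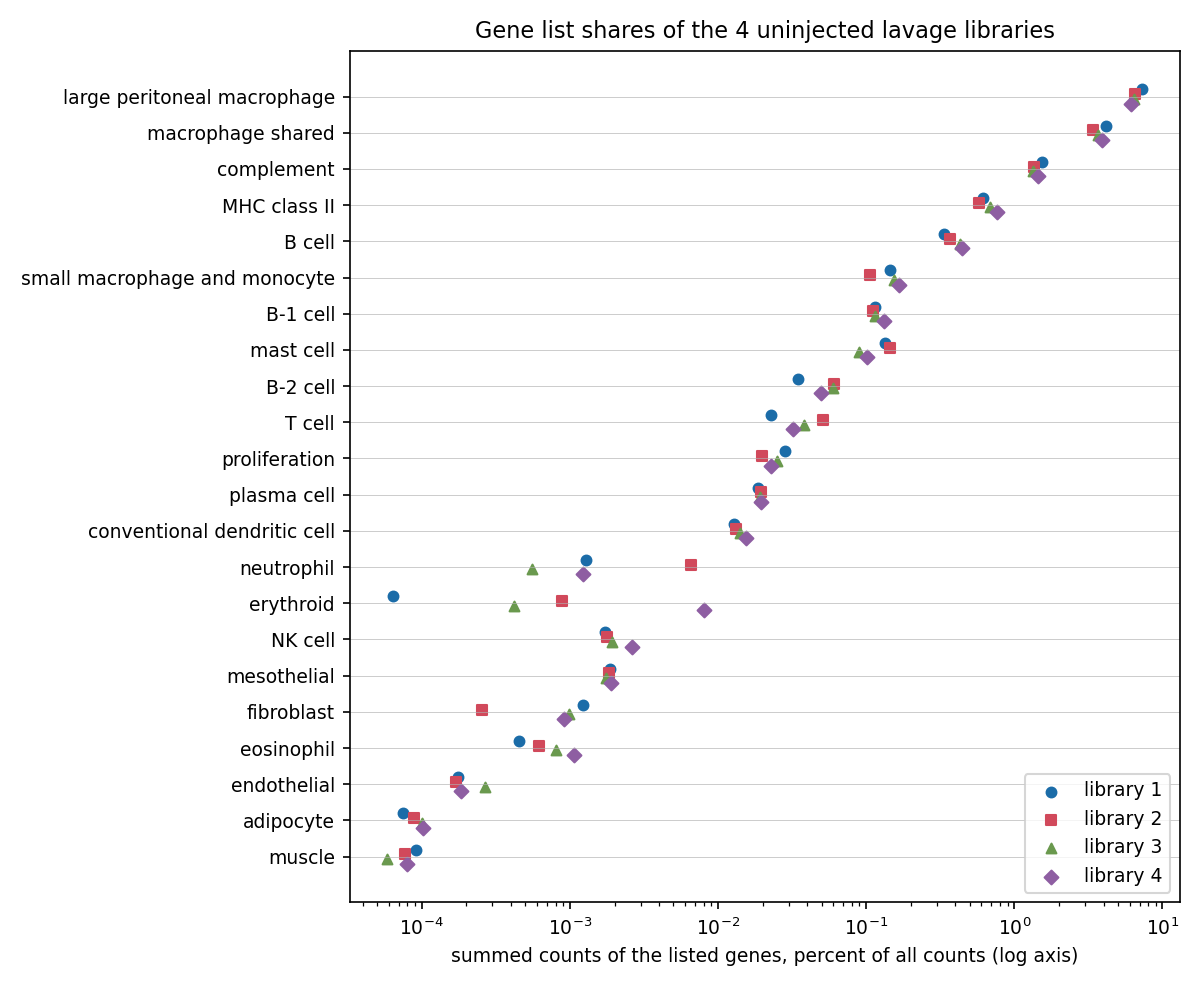
Summed counts of the genes of 22 lists as a percent of all counts, on a log axis, with 1 point for each of the 4 libraries. The large peritoneal macrophage list sits at 6.12 to 7.28% with its points close together, while the neutrophil and erythroid points spread over more than 10-fold and each have 1 library far to the right.

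By summed counts, small peritoneal macrophage and monocyte genes were far lower than those of the large macrophage and lowest in library 2. The 12 genes took 0.144, 0.105, 0.154 and 0.167% of counts. Library 2 was lowest for 8 of the 11 members past 1 CPM (28% of all genes) and library 4 highest for 6 (22.6%). Of the others, Cx3cr1 and Chil3 were lowest in library 3 and Ly6c2 in library 1. Cx3cr1 was highest in library 2. Retnla, a secreted protein of alternatively activated macrophages and 33.2% of the list, had 520, 306, 486 and 592 CPM. Ccr2, the receptor that brings monocytes out of bone marrow, had 251, 192, 262 and 319 CPM, and Mrc1, the mannose receptor, 170, 109, 174 and 204. The folate receptor Folr2 was 2-fold apart with 25.1, 13.6, 29.8 and 30.7 CPM, as was Chil3, a chitinase-like protein, with 8.81, 6.19, 3.42 and 3.89, which was highest in library 1. Treml4, a receptor of patrolling monocytes, reached at most 0.238 CPM.

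Further genes of tissue macrophages, chosen after their values were seen, had the same low value in library 2. Cd163, the haemoglobin scavenger receptor, had 70.5, 30.4, 61.6 and 77.9 CPM, Siglec1, a sialic acid receptor, 25.4, 18.1, 30.1 and 45.0, and Mgl2, a lectin, 32.1, 14.0, 25.9 and 38.5. All of these were at least 2-fold apart (5.85% of all genes) and highest in library 4 (22.6%). They were picked by these same values, so their order adds no support to that of the list.

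Antigen presentation genes were likewise highest in library 4. The 10 MHC class II genes took 0.610, 0.573, 0.685 and 0.764% of counts, and Cd74 was 49.96% of that. Library 4 was highest for 8 of the 10 (22.6% of all genes). None was 2-fold apart, which for so few genes is near the share of all genes (5.85%). H2-Aa, a class II alpha chain, had 1041, 920, 1163 and 1283 CPM, and Ciita, the transcriptional activator of these genes, had 83.1, 90.6, 96.9 and 120. H2-Ob, an inhibitor of peptide loading that is typical of B cells, differed from this order with 128, 180, 172 and 174 CPM, lowest in library 1.

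Dendritic cell genes were a small part. The 9 conventional dendritic cell genes took 0.0127, 0.0132, 0.0140 and 0.0156% of counts. Cd209a, a lectin shared with monocyte-derived cells, led with 50.4, 30.0, 40.9 and 65.1 CPM and was 2-fold apart, lowest in library 2. Ccr7, a homing receptor that naive T cells also carry, was the other 2-fold member with 15.0, 38.8, 37.8 and 23.7 CPM, lowest in library 1. Clec9a and Xcr1, which define the cross-presenting type, had 1.77 to 3.05 and 0.153 to 1.009 CPM. The 3 plasmacytoid genes took 0.000947 to 0.00143% of counts, with Siglech at 0.216 to 0.545 CPM.

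B cell genes were the most abundant lymphoid group. The 15 genes took 0.337, 0.369, 0.429 and 0.444% of counts, a mean of 0.395% ± 0.0502 (SD, n = 4). Library 4 was highest for 10 of the 15 (22.6% of all genes) and library 1 lowest for 12 (28.2%). Ms4a1, which encodes CD20, had 631, 587, 810 and 821 CPM. Pax5, the factor that fixes B cell identity, had 277, 305, 454 and 373. The only member that was 2-fold apart was Cd72, an inhibitory receptor, at 4.16, 12.9, 9.85 and 8.37 CPM, whose span overlaps Tesk1 on the other strand.

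B-1 genes varied less than those of B-2 cells. The 10 B-1 genes took 0.115, 0.112, 0.115 and 0.132% of counts. Library 4 was highest for 8 (22.6% of all genes). None was 2-fold apart, which for so few genes is near the 5.85% of all genes. Zbtb32 and Bhlhe41, transcription factors of B-1 cells, had 63.6, 70.8, 65.2 and 75.7 CPM and 79.6, 96.3, 96.1 and 100 CPM. Siglecg, an inhibitory receptor, had 148, 147, 146 and 178 CPM, and the interleukin-5 receptor Il5ra 67.3, 64.4, 71.7 and 82.7. Cd5, which T cells carry too, was the exception: 9.66, 17.7, 12.9 and 11.4 CPM, highest in library 2. Myof made up 24.2% of the list, and no value here separates B-1 cells from other cells that express it.

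B-2 genes were lowest in library 1. The 5 genes took 0.0348, 0.0607, 0.0594 and 0.0494% of counts, and 3 of the 5 were at least 2-fold apart, against 5.85% of all genes. Ighd, the IgD constant region that mature follicular B cells bear, had 78.7, 233, 180 and 134 CPM. Fcer2a, which encodes CD23, had 13.5, 48.3, 40.9 and 33.2 CPM, and Cr2, complement receptor 2, had 20.2, 44.5, 39.3 and 34.8. All 3 were highest in library 2, then 3, then 4 and lowest in library 1, as was Zfp318, the factor needed for IgD, with 61.5, 96.3, 79.9 and 68.1 CPM. That order held for 6.47% of all genes. Cxcr5, a follicle homing receptor, did not share it, with 178, 177, 257 and 223 CPM. Relative to Ighm per length, Ighd was 0.0255, 0.0765, 0.0480 and 0.0344, so library 2 had 3.00-fold the ratio of library 1.

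**Figure D2:**
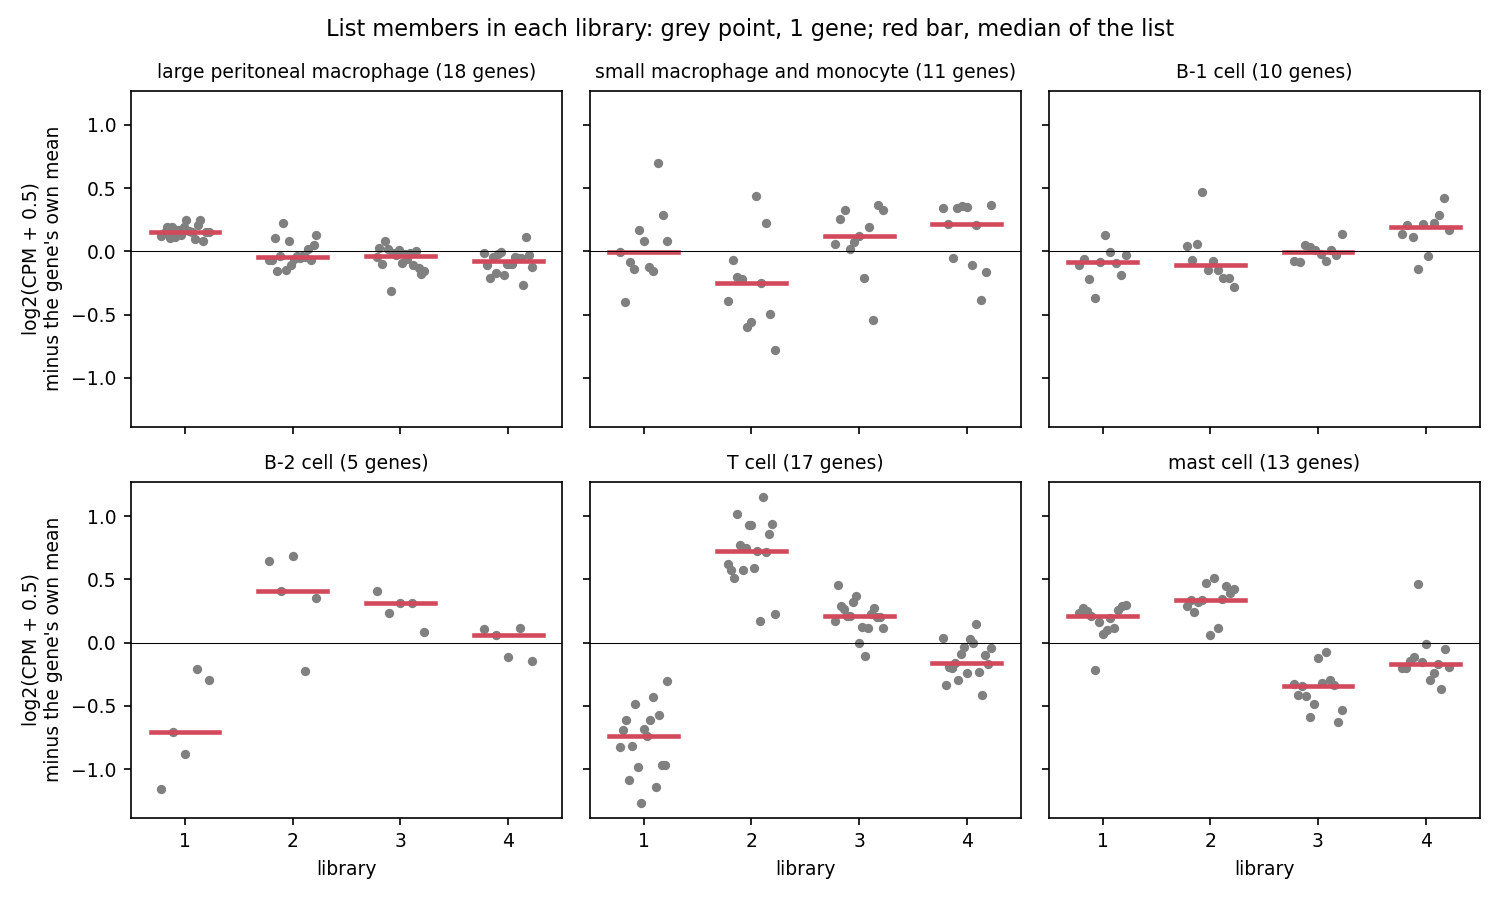
Each grey point is 1 gene, as log2(CPM + 0.5) minus that gene's own mean over the 4 libraries, and each red bar is the median of its list. T cell genes span medians from -0.74 in library 1 to 0.72 in library 2, B-2 genes show the same low library 1, mast cell genes are above 0 in libraries 1 and 2, and large peritoneal macrophage genes stay near 0 in all 4.

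Immunoglobulin constant genes took 0.413, 0.440, 0.521 and 0.536% of counts. Per length, Ighm was 95.04% ± 2.10 of heavy chain constant signal (SD, n = 4), and Ighd 2.48, 7.06, 4.55 and 3.30%. Switched isotypes were low: Ighg3 had 14.3, 17.0, 20.7 and 25.4 CPM, Igha 3.04, 2.14, 3.20 and 3.77, and Ighe no count. The IgG1 and IgG2 genes differed more, with Ighg2b at 1.98, 9.003, 6.47 and 3.55 CPM, Ighg2c at 0.108, 2.37, 1.10 and 0.595, and Ighg1 at 0.180, 0.851, 0.331 and 0.436, all highest in library 2 and lowest in library 1. Kappa was 71.4% ± 1.05 of light chain constant signal per length, and the lambda genes Iglc2, Iglc3 and Iglc1 made up 12.3%, 9.46% and 6.86%. Counts over variable segments, not scaled by length, gave lambda a smaller part. In libraries 1 to 4 they were 3547, 3918, 4493 and 3879 for lambda and 19546, 22555, 24531 and 23309 for kappa. The reason for this difference was not tested.

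The variable (V) segments were dominated by a single heavy and a single kappa segment. Of 17354 to 19563 counts over heavy chain V segments per library, Ighv11-2 took 32.4, 23.6, 22.0 and 29.0%, with 95% Wilson intervals no wider than 0.693 points on each side. All such intervals take each count as independent, so they are too narrow if both reads of a pair were counted. Ighv11-2 is the segment of B-1 clones that bind phosphatidylcholine, and so is Ighv12-3, which took 4.53, 8.26, 5.80 and 3.67%. Those 2 segments ran in opposite directions, since library 2 was highest for Ighv12-3 and library 1 for Ighv11-2. Igkv14-126, the usual light chain partner of Ighv11-2, took 31.9, 18.6, 18.7 and 24.4% of kappa V counts, again highest in library 1 and then in library 4.

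Other segments marked single libraries. Igkv12-89 took 9.18% of kappa V counts in library 4, against 3.24, 1.21 and 4.45% in the others, and Ighv1-55 stood at 6.21% of heavy V counts there against 2.22, 1.59 and 3.30%. Narrower ranges were those of Igkv1-117 (6.27 to 8.02%), Igkv1-110 (5.51 to 6.10%), Igkv4-91 (5.08 to 5.76%) and Ighv9-3 (4.29 to 5.78%). Igkv10-96 took 2.97, 4.84, 4.50 and 2.38%, higher in libraries 2 and 3. Among lambda segments Iglv1 took 59.3% ± 3.31, Iglv2 32.5% ± 3.26 and Iglv3 8.19% ± 0.873 (SD, n = 4). Of 121 heavy and light V genes past 1 CPM, 45 (37.2%) were at least 2-fold apart, against 505 of 11289 protein-coding genes (4.47%). Other annotation classes were also above the protein-coding share, with 63 of 194 TEC genes (32.5%) and 31 of 180 lincRNA genes (17.2%). These classes were not matched for level. Of the 9903 genes with a mean of at least 5 CPM, 146 were 2-fold apart, against 719 of the 12283 past 1 CPM. The part of level in the V gene share was not tested. Segments resemble each other closely, and how reads matching several of them were counted was not given in the sources used here.

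**Figure D3:**
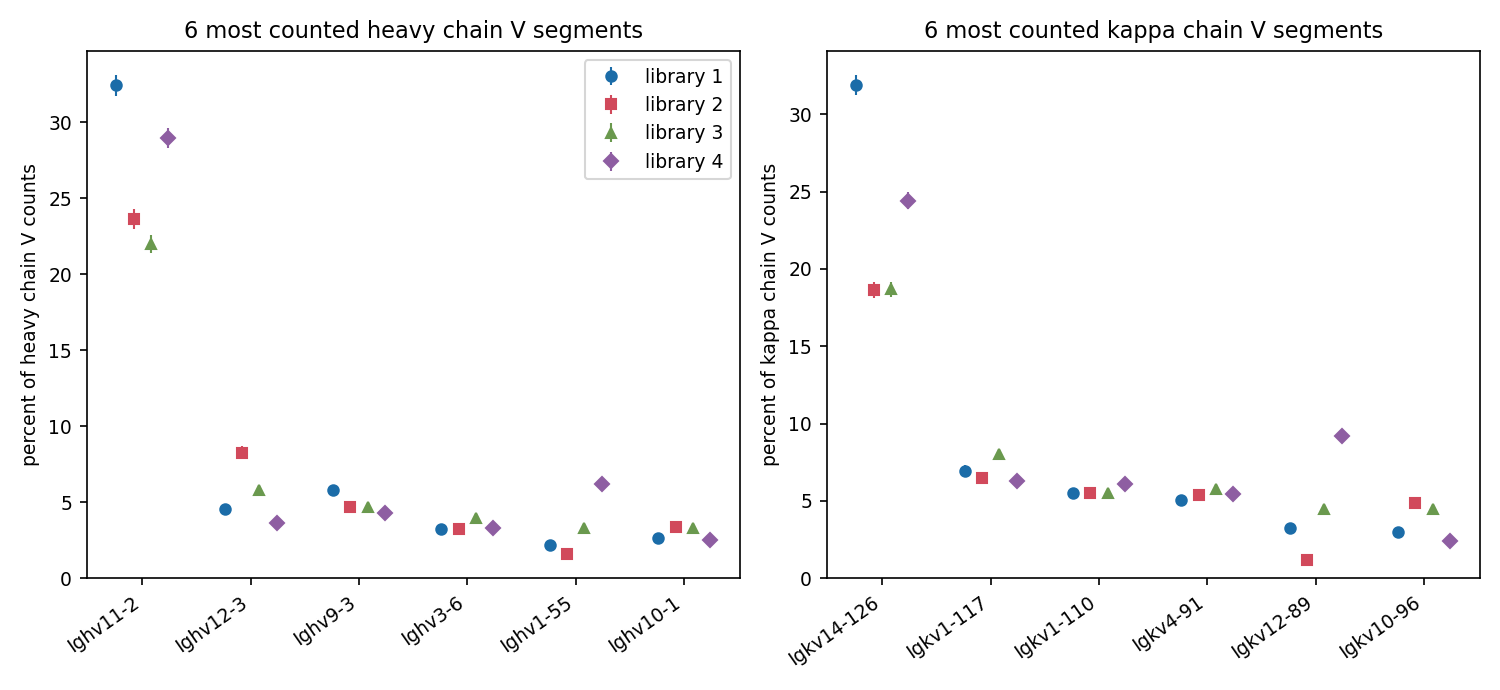
Share of all heavy chain (left) and kappa chain (right) V counts taken by the 6 most counted segments, with 1 point per library and 95% Wilson intervals as bars. The intervals take each count as independent and cover counting error only. Ighv11-2 and Igkv14-126 stand above all others and have the same order of libraries at the top, 1 then 4, while Igkv12-89 and Ighv1-55 are highest in library 4.

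Secreting plasma cells left little signal. The 7 listed genes took 0.0187, 0.0196, 0.0191 and 0.0193% of counts, and 77.2% of that was Xbp1, a secretory stress factor that macrophages also use, at 135 to 161 CPM. Jchain, the joining chain of secreted IgM, had 4.65, 2.18, 7.94 and 6.49 CPM, lowest in library 2. Sdc1, which encodes CD138, had 13.3, 9.41, 16.2 and 21.4 CPM and Derl3 1.21, 2.57, 1.86 and 2.99. This makes 3 of the 6 members past 1 CPM 2-fold apart, against 5.85% of all genes. Tnfrsf17, the survival receptor of plasma cells, reached at most 0.159 CPM.

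Among the macrophage, B, T, NK and mast cell lists, T cell genes differed most between libraries. The 17 genes took 0.0228, 0.0510, 0.0381 and 0.0322% of counts, a mean of 0.0360% ± 0.0118 (SD, n = 4). Library 2 was highest for 17 of 17 (26.3% of all genes) and library 1 lowest for 17 of 17 (28.2%). Of the 17, 15 were at least 2-fold apart, against 5.85%, and the median ratio of highest to lowest was 2.90, against 1.21. The full order 2, 3, 4, 1 held for 15, against 6.47%, and these counts were the same under all 3 scalings.

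Receptor and co-receptor genes gave the values. Trac, the constant region of the alpha chain, had 3.33, 11.0, 7.33 and 5.55 CPM, and Trbc2, that of the beta chain, 5.42, 19.2, 14.1 and 10.5. Cd4, the co-receptor of helper cells, had 5.17, 25.5, 17.1 and 12.8 CPM, and Cd8a, that of cytotoxic cells, 4.11, 13.6, 6.87 and 5.75. Both were highest in library 2, and per length Cd4 was 1.14, 1.69, 2.25 and 2.00 times Cd8a. Tcf7, a factor of naive and memory T cells, had 20.4, 77.7, 46.5 and 35.9 CPM. Cd2, an adhesion receptor, made up 48.5% of the list with 141, 203, 188 and 169 CPM and was only 1.45-fold apart, so the list's share understates the spread of its other members.

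V segments of the T cell receptor were thinly covered but had the same order. Beta chain V segments together had 190, 762, 460 and 255 counts, and those of the alpha chain 70, 202, 119 and 78. No segment dominated: Trbv13-2 took 13.7, 14.8, 8.48 and 10.2% of beta chain V counts, with intervals of up to 4.89 points on each side. Gamma chain V segments had 31 to 55 counts and delta chain segments 6 to 26, too few to rank.

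The lists of regulatory T cells, gamma-delta and innate T cells, NK cells and innate lymphoid cells had 4, 5, 8 and 2 genes past 1 CPM. None of these had the order 2, 3, 4, 1, which for so few genes is near the 6.47% of all genes. Of the 5 B-2 genes, 4 shared the order. The 4 regulatory T cell genes took 0.00229 to 0.00322% of counts, with Foxp3, their defining factor, at 1.30, 1.72, 1.69 and 1.25 CPM. The gamma-delta and innate T cell list (0.00316 to 0.00449%) rested on Zbtb16, 76.3% of it, with 34.2, 35.3, 28.9 and 22.6 CPM, and Trdc, the delta chain constant region, had 1.66, 2.99, 2.68 and 2.74. NK cell genes took 0.00174, 0.00177, 0.00193 and 0.00262% of counts, and library 4 was highest for 8 of 8 (22.6% of all genes). Ncr1, the NK activating receptor NKp46, had 2.63, 1.67, 2.65 and 4.03 CPM and Nkg7, a granule protein, 3.06, 3.20, 4.10 and 4.88. Of the group 2 innate lymphoid list, 95.1% was Il1rl1, the interleukin-33 receptor that mast cells also carry, at 58.9 to 77.2 CPM, while Il13 had no count, Il5 at most 0.184 CPM and Areg at most 0.119.

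Mast cell genes divided the libraries into a higher and a lower pair. The 13 genes took 0.134, 0.144, 0.0888 and 0.102% of counts, a mean of 0.117% ± 0.0263 (SD, n = 4). Library 2 was highest for 9 of the 13 (26.3% of all genes), or 11 when scaled by library size alone, and library 3 lowest for 11 (21.7%). Cma1, a chymase, had 311, 324, 193 and 224 CPM, Mcpt4, another chymase, 214, 212, 141 and 162, and Tpsb2, a tryptase, 204, 221, 131 and 163. Kit, the stem cell factor receptor that mast cells need, had 65.3, 80.7, 41.5 and 52.4 CPM.

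Receptors on the list were lower in level than these proteases. Mrgprb2, the receptor for basic secretagogues, had 11.997, 12.9, 6.10 and 9.34 CPM and was 2-fold apart, as was Tpsab1, a tryptase with 1.53, 2.49, 1.07 and 2.76. Fcer1a, the IgE receptor alpha chain, was nearly level, with 13.2, 13.1, 11.5 and 12.5 CPM. Per length, Cpa3 was 0.539, 0.640, 0.408 and 0.437 of Adgre1. Of the 2 basophil genes, Mcpt8 reached at most 0.238 CPM while Prss34, a serine protease, had 5.15 to 7.86, and Mcpt8 is the gene that defines basophils.

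Granulocyte genes were scarce, and library 2 stood apart for neutrophils. The 11 neutrophil genes took 0.00129, 0.00652, 0.000554 and 0.00122% of counts. All 5 members past a mean of 1 CPM were highest in library 2 (26.3% of all genes) and at least 2-fold apart (5.85%). The limit is a mean over the 4 libraries, so a gene such as Mpo passed it through library 2 alone. Being highest there is then partly set by the limit. S100a9 and S100a8, the calprotectin subunits, had 4.25, 23.8, 1.03 and 3.49 CPM and 4.61, 15.5, 1.03 and 3.25 CPM. Cxcr2, the chemokine receptor of mature neutrophils, had 1.75, 9.38, 0.221 and 1.45 CPM, and Mpo, myeloperoxidase, 0 counts in library 1 and then 4.94, 0.184 and 0.754 CPM. Ly6g, the usual neutrophil surface marker, reached at most 0.238 CPM, at or near the limit of counting. The 4 eosinophil genes took 0.000451 to 0.00106% of counts, with Ccr3 at 3.22, 3.90, 6.38 and 8.01 CPM and Epx, eosinophil peroxidase, with no count.

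Red cell genes stood apart in a different library. The 6 erythroid genes took 6.42e-05, 0.000883, 0.000421 and 0.00799% of counts. Hbb-bs, a beta globin, had 0.468, 5.97, 3.11 and 54.6 CPM, and Hba-a1, an alpha globin, 0.0721, 1.41, 0.680 and 13.5. Alas2, the haem synthesis enzyme of red cell precursors, had 3.53 CPM in library 4 and at most 0.184 in the others. Globin copies are nearly identical, so reads may be shared between them. Per length, Hbb-bs was 6.87, 4.47, 4.83 and 4.26 times Hba-a1. Libraries 2 and 4 thus carried different blood genes: library 2 had 5.97 CPM of Hbb-bs with 23.8 of S100a9, and library 4 had 54.6 with 3.49. The part of blood in the values of other genes was not tested.

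Genes of the cavity wall were low. The 10 mesothelial genes took 0.00176 to 0.00191% of counts, and 5 of them passed 1 CPM. Krt8, a keratin of simple epithelia, made up 42.1% of the list with 6.61, 10.2, 6.51 and 7.46 CPM. Upk3b, a uroplakin of mesothelium, had 2.16, 0.170, 1.76 and 0.912 CPM, lowest in library 2. Msln and Wt1, defining markers of that lining, reached at most 0.324 and 0.674 CPM. The 7 fibroblast genes took 0.00123, 0.000253, 0.000990 and 0.000914%, with Dcn, decorin, at 4.81, 1.26, 4.26 and 3.95 CPM and Col3a1, collagen III, at 4.68, 0.443, 3.22 and 3.49, both lowest in library 2. Dpt had no count, and Pdgfra and Lum reached at most 0.0360 CPM. Endothelial genes took at most 0.000269% of counts, adipocyte genes at most 0.000101% and muscle genes at most 9.1e-05%, with no count for Cfd, Lep, Acta1 and Myh4.

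The platelet list rested mostly on 1 gene. Pf4, platelet factor 4, had 358, 285, 291 and 267 CPM and made up 99.1% of its list. Gp9 and Gp1bb, receptors that define platelets, had no count in any library, and Ppbp had 2 counts in library 1 and none elsewhere. Itga2b, an integrin chain of platelets and their precursors, had 3.19, 3.42, 2.06 and 2.26 CPM. Pf4 was highest in library 1 and Itga2b in library 2.

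Xist, the RNA of the inactive X chromosome, had 1183, 1497, 1225 and 1184 CPM. The Y-linked genes Ddx3y, Uty, Kdm5d and Eif2s3y had no count in any library. Xist overlaps Tsix on the other strand, and the strand setting was not given in the sources used here.

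Cycling genes were detectable in all libraries. The 14 proliferation genes took 0.0284, 0.0197, 0.0251 and 0.0227% of counts, with library 1 highest for 10 (26.4% of all genes) and library 2 lowest for 11 (28%). Mki67, the marker of dividing cells, had 94.3, 58.2, 78.4 and 74.2 CPM and Top2a, topoisomerase 2, 54.0, 32.1, 45.7 and 40.5. Cdk1, the mitotic kinase, had 6.07, 2.26, 3.66 and 4.36 CPM and, with Ccnb1 and Birc5, was 2-fold apart. The replication genes Mcm3 and Mcm5 were nearly level, with 37.6 to 45.2 and 19.7 to 27.2 CPM.

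The type I interferon response was a small list. Its 15 genes took 0.0234, 0.0217, 0.0223 and 0.0281% of counts, and the median ratio of highest to lowest was 1.48, against 1.21 for all genes. Library 4 was highest for 8 of the 14 past 1 CPM (22.6% of all genes). Isg15 had 1.24 to 1.84 CPM and Ifit1 2.702 to 4.145. Of the 14, 2 were 2-fold apart, against 5.85% of all genes. They were Rsad2, an antiviral enzyme, with 5.39, 4.02, 2.98 and 7.24 CPM, and Ifit2 with 3.35, 7.01, 7.30 and 6.52.

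Within the stress list, the inducible HSP70 genes were the furthest apart. The 12 immediate early and heat shock genes took 0.240, 0.205, 0.235 and 0.208% of counts, and 44.3% of that was Hspa8, the constitutive HSP70, with 936, 1073, 998 and 922 CPM. Of the inducible genes, Hspa1b had 189, 5.82, 14.3 and 66.7 CPM and Hspa1a 121, 4.63, 11.0 and 44.8, so libraries 1 and 4 were high, library 3 low and library 2 lowest. Highest and lowest were 32.5-fold and 26.1-fold apart. The chaperone partner Dnajb1 had the same order in a narrower range, 48.6, 33.4, 41.8 and 42.7 CPM.

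The 2 inducible genes are near-identical neighbours on chromosome 17, and reads may be shared between them. Their upstream sequences are printed because these genes were the furthest apart on the list and had the same order of libraries. Each is the 250 bases before the annotated start, from RefSeq on GRCm38.p6, minus strand, at chr17:34972157-34972406 for Hspa1a and chr17:34959239-34959488 for Hspa1b. Capitals mark GAANNTTC, a core of the heat shock element, searched on both strands, which are the same for this palindrome.
Hspa1a: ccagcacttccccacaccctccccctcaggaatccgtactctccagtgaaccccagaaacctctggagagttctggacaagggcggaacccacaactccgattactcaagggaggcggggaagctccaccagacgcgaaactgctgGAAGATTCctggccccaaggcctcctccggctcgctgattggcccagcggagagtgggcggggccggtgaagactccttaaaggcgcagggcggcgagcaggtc
Hspa1b: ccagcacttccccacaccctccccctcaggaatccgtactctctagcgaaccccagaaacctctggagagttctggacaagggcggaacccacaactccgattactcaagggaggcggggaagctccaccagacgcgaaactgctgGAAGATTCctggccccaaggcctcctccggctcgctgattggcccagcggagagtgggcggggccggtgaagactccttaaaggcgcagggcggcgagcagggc
The windows share 247 of 250 bases, and each holds 1 match, which starts 104 bases before the annotated start. Such a match was present in 6.69% of 32851 promoters of the same length and is a description only. The 2 RefSeq windows of Dnajb1 held no match.

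Immediate early genes followed the heat shock pair only in part. Fos, a transcription factor induced within minutes of stimulation, had 270, 122, 272 and 187 CPM, Fosb 32.7, 10.7, 24.2 and 20.4, and Jun 240, 124, 203 and 195. All 3 were lowest in library 2, and Fos was as high in library 3 as in library 1. Egr1 (49.7 to 62.9 CPM) and Ier2 (88.0 to 97.8) were nearly level. Dusp1 had 227, 267, 334 and 204 CPM, highest in library 3. A set of 3 activation genes chosen after their values were seen was also highest there, Rgs1 with 18.4, 16.8, 32.5 and 12.6, Cd69 with 13.08, 13.04, 19.96 and 9.86, and Socs3 with 131, 85.9, 176 and 130. Handling time or temperature of the samples is not given by the labels, and its part was not tested.

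Gene-wise variation was measured as the biological coefficient of variation (BCV), the relative spread between libraries beyond the error of independent counts. Counting error at low counts is larger than that, so the BCV of low genes may include some of it. The median BCV was 0.0781 over the 12283 genes and 0.0682 over the 9903 with a mean of at least 5 CPM. Of the 12283, 52 genes were at least 5-fold apart, 23 at least 10-fold and 15 at least 20-fold. Library 2 was highest for 303 of the 719 genes that were 2-fold apart, library 4 for 176, library 1 for 141 and library 3 for 99. The lowest library of the 719 was library 1 for 221, library 2 for 187, library 3 for 186 and library 4 for 125.

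**Figure D4:**
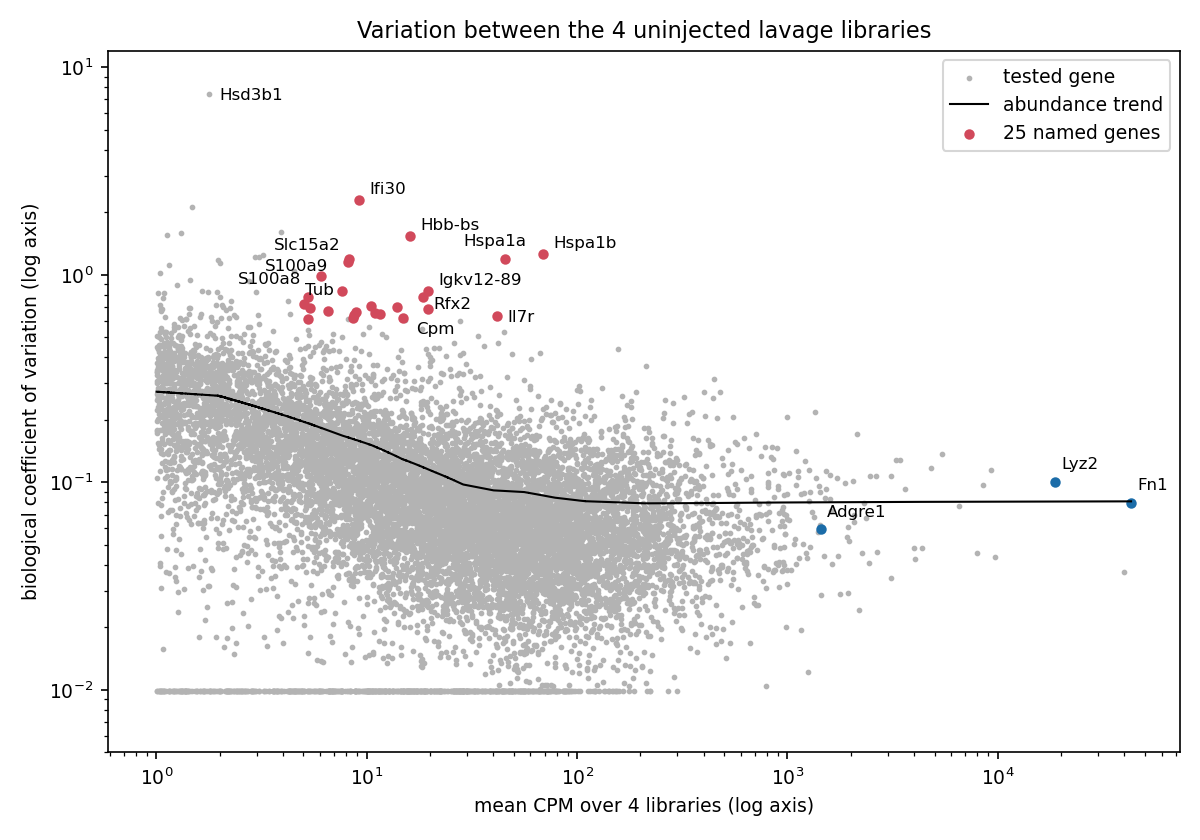
Biological coefficient of variation against mean CPM for the 12283 genes with a mean of at least 1 CPM, both on log axes, with edgeR's abundance trend as a line and the 25 named genes in red. The row of points at the bottom is the smallest value the estimate gives (657 genes). Fn1, Lyz2 and Adgre1 lie close to the line, while Ifi30, Hbb-bs, Hspa1b and Hspa1a lie far above it.

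The 25 named genes of at least 5 CPM with the highest BCV ran from 2.29 for Ifi30 down to 0.613 for Ighg2b, and the first gene left out was Cd247, a T cell receptor chain, at 0.612. Library 2 was highest for 18 of the 25 (26.3% of all genes), library 4 for 5 (22.6%) and library 1 for 2 (26.4%). The order 2, 3, 4, 1 of the T cell list held for 12 of the 25 (6.47% of all genes).

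Ifi30, a lysosomal thiol reductase of antigen-presenting cells, stood first. It had 0.0180, 36.2, 0.478 and 0.0793 CPM, present in library 2 and next to absent in the others. The annotation classes this gene identifier as a processed transcript, at chr8:70762774-70766663 on the minus strand, and its span overlaps 6330537M06Rik on the other strand. Slc15a2, a peptide transporter, had 0.342, 14.3, 14.2 and 4.22 CPM, high in libraries 2 and 3. Both are among the 12 with the order 2, 3, 4, 1, over a range far wider than that of any T cell gene on the list.

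Some T cell genes outside the fixed list had its order, among the 25 picked by their variation in these same libraries. Not all T cell genes did: Icos, a costimulatory receptor with a mean of 1.71 CPM, was highest in library 2 and lowest in library 4. Lef1, a factor of naive T cells, had 4.41, 26.6, 15.2 and 9.24 CPM, and Il7r, the receptor for interleukin-7, 16.05, 78.4, 44.1 and 28.0. Trat1, an adaptor of the T cell receptor, had 1.59, 10.1, 5.37 and 3.13 CPM, Cd6, a T cell surface receptor, 1.93, 11.8, 6.82 and 5.57, and Themis, which is on the list, 3.12, 17.3, 8.84 and 6.31. Nsg2 had 1.24, 10.6, 5.55 and 3.75 CPM, Ralgds 6.58, 28.3, 15.4 and 9.14, Als2cl 4.38, 17.5, 7.52 and 5.10, and Cpm, carboxypeptidase M, 6.47, 35.5, 24.2 and 12.1. These also ran from library 2 through 3 and 4 to 1, and which cells expressed them was not tested. Gpr83 and Slc28a2b, chosen after their values were seen, did so too, with 0.504, 6.21, 3.03 and 1.31 CPM and 0.414, 10.4, 4.14 and 3.11.

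A further set was high in library 2 alone. Rfx2, a transcription factor, had 11.6, 44.4, 10.3 and 7.83 CPM, Tub 2.94, 19.1, 3.86 and 4.74, and Zfp811 6.79, 23.6, 5.74 and 5.71. Their other 3 libraries lay within 2-fold of each other. Pdk4, the kinase that restrains pyruvate use, split differently, with 5.84, 16.6, 4.28 and 17.2 CPM, high in libraries 2 and 4. Iigp1, an interferon-gamma induced GTPase, had 5.03, 2.88, 2.32 and 11.2 CPM, highest in library 4. Igkv3-7, a kappa segment, had 4.72, 15.6, 10.8 and 3.61 CPM, highest in library 2.

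**Figure D5:**
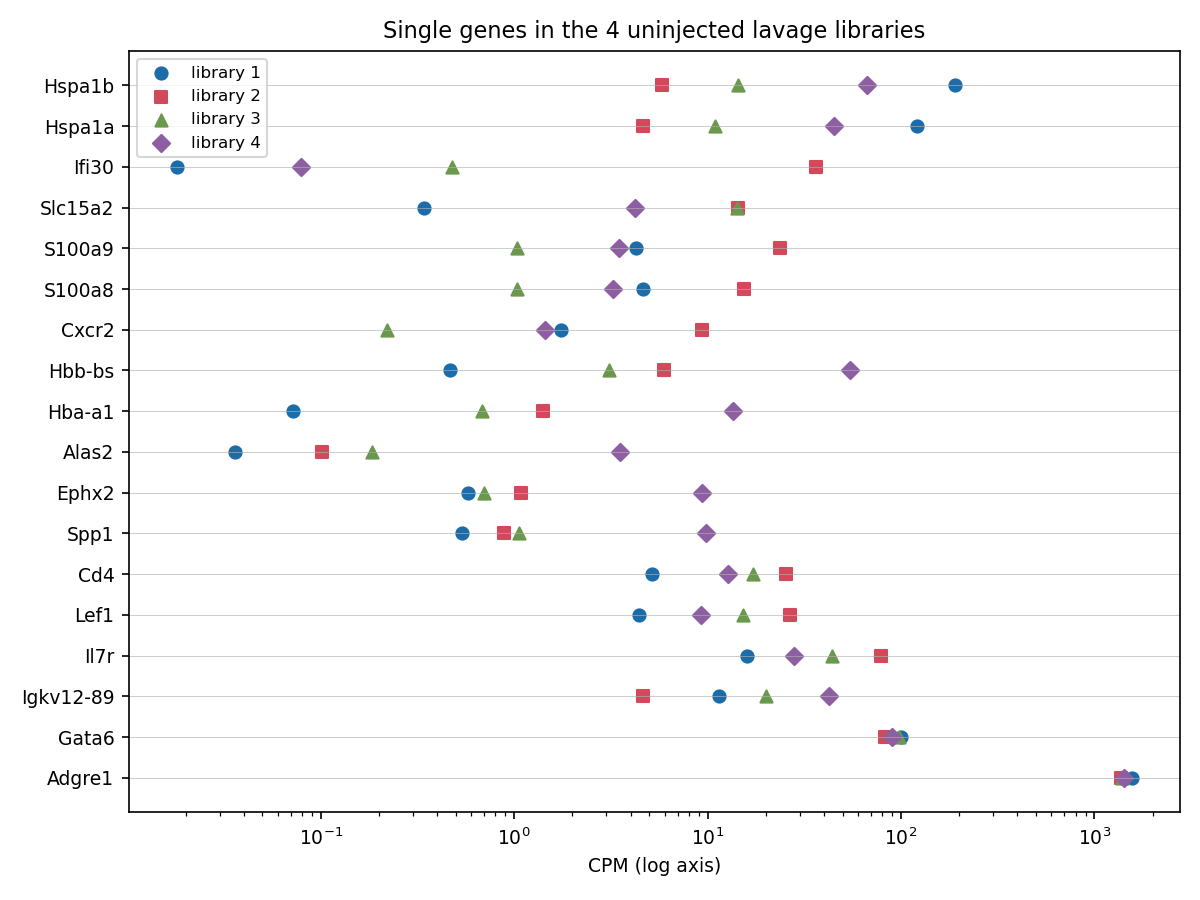
CPM of 18 genes in each of the 4 libraries, on a log axis. Hspa1b and Hspa1a are high in libraries 1 and 4, Ifi30 and the neutrophil genes S100a9, S100a8 and Cxcr2 in library 2, the red cell genes Hbb-bs, Hba-a1 and Alas2 with Ephx2 and Spp1 in library 4, and the points of Gata6 and Adgre1 overlap.

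Of the 12283 genes, 15 (0.122%) had 1 library at least 4-fold above every other, 9 of them in library 4, 6 in library 2 and none in libraries 1 and 3. Those of library 2 included Ifi30, S100a9, Cxcr2, Mpo and Tub. Those of library 4 included the globins, Spp1, osteopontin, with 0.540, 0.885, 1.07 and 9.78 CPM, and Ephx2, soluble epoxide hydrolase, with 0.576, 1.09, 0.698 and 9.34. Fshr, the receptor named in the label of the second injected line, had no count in any of the 4 libraries.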

How the data were processed

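Bulk RNA of peritoneal lavage cells was sequenced after ribosomal RNA depletion (KAPA HyperPrep with RiboErase, 100 ng, per the labels' protocols). The authors deposited whole-number read counts for 55401 genes, not normalized. STAR 2.7.9a, featureCounts (Subread 1.6.4), bcl2fastq 2.20 and the build GRCm38.p6 are named in the submitters' processing notes. Annotation release, strand setting and the treatment of read pairs and of reads that map to several places were not given in the sources used here.

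From the 4 uninjected columns, CPM was scaled with TMM (edgeR 4.0.16, R 4.3.3), and the BCV is the square root of edgeR's gene-wise dispersion (intercept only, prior df of 0). Levels between genes were compared per kilobase of merged exon in GENCODE M21, whose lengths matched 55141 genes by identifier. Coordinates were taken only for the 54349 identifiers that matched with their version. On simulated data, 182 of 200 genes with planted variation came among the 200 highest BCV values. The planted genes had a mean of at least 5 CPM, all other genes the same lower BCV, and counts were independent. In the real data the BCV rose at low levels and low counts were mostly even. The recovery is therefore no measure of how well the real genes are ranked. No pair of libraries agreed within sampling noise (chi-square per gene of 15.3 to 37.8).

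Named genes were the 5 markers, the 20 highest by mean CPM and per kilobase, the 25 highest by BCV at a mean of at least 5 CPM, members of 35 gene lists (the 4 highest per kilobase, those at 0 and those 2-fold apart) and the 6 most counted V segments of each locus. Other list members are given to show a list's range, and some genes that these rules name are not reported here. The part, lists and rules were chosen with earlier results of these data known. Of 341 list entries 338 matched by symbol and 3 by identifier, and some genes stand on more than 1 list. Alternatives were other scalings, filters, denominators, TPM, lists without their most counted gene, and leaving out each library.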

Additional observations from a re-analysis of the deposited data

Results flagged for a closer look

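For 278 values of the 4 libraries (gene levels and list shares), the gap between an extreme library and its nearest neighbour was divided by the whole range and set against Dixon's 95% critical value. This marked 40 values. Chance marks about 1 in 20 groups, but many of the 278 were chosen because they vary or stand out in 1 library, so the number marked cannot be read against that share. A gene counted in 1 library alone has a ratio of 1 by construction.

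Library 4 stood above the others for the erythroid share (ratio 0.897), Hbb-bs (0.898), Hba-a1 (0.901) and Alas2 (0.958). It did so too for Hsd3b1, Akr1cl, Nr5a2, Nr5a1, Lhcgr and Inha (each 1), Prss35 (0.991), Greb1 (0.925), Prlr (0.903), Spp1 (0.943) and Ephx2 (0.941). Siglecg (0.943), Wt1 (0.964) and Mcpt8 (0.968) were also highest there, the last at levels near the counting limit.

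Library 2 stood above the others for the neutrophil share (0.876), S100a9 (0.859), Cxcr2 (0.833) and Mpo (0.847), and for Ifi30 (0.987), Zfp811 (0.940), Rfx2 (0.897), Tub (0.888) and Trbv13-2 (0.8292). Xist (0.865), and with it the sex-linked share (0.858), was highest there, as was Pdgfra (1) at 0.0340 CPM. Library 2 was lowest for Ccl6 (0.929) and Eef2 (0.877).

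Library 1 stood above the others for Alox15 (0.903), Mertk (0.860), Cyp26a1 (0.912) and Birc5 (0.8292), and, with 2 counts each, for Ppbp (1) and Lum (1). It was lowest for H2-Ob (0.848). Library 3 was highest for the endothelial share (0.862), which rests on 92 to 147 counts.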

How the results depend on the processing

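No paired analysis was possible because only the uninjected group is described, so no other group shares its replicate numbers. Of 50 alternative values over 7 results, 37 stayed within the spread of the libraries (or within 1.5 times for the gene count) and 13 did not. On TPM computed from the merged exon lengths, the share became 3.65% for large peritoneal macrophage genes, 0.0617% for B-1, 0.0635% for T and 0.278% for mast cell genes. Without its most counted member, the share became 2.29% (large peritoneal macrophage, without Fn1), 0.324% (B cell, without Ms4a1), 0.0900% (B-1, without Myof), 0.0302% (B-2, without Cxcr5), 0.0185% (T cell, without Cd2) and 0.0831% (mast cell, without Cpa3). Leaving out each library in turn gave 6.36 to 6.74%, 0.378 to 0.414% (B cell), 0.114 to 0.121% (B-1), 0.0479 to 0.0565% (B-2), 0.0310 to 0.0404% (T) and 0.108 to 0.127% (mast). Genes at least 2-fold apart numbered 719, or 11066 without the abundance filter, 146 at a mean of at least 5 CPM, 730 scaled by library size and 717 by median of ratios. With 3 libraries they numbered 382 (without library 2) to 521, and library 2 was the highest for 303 of the 719.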

Other observations

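A small set of genes known from steroid-making cells of the ovary and adrenal gland was counted in library 4 and next to nowhere else. These genes were chosen after their values were seen. Hsd3b1, a steroid dehydrogenase, had 360 counts in library 4 (7.14 CPM) and 0 in libraries 1 to 3. Akr1cl, an aldo-keto reductase, had 170 counts there, Nr5a2, a nuclear receptor that drives steroid genes, 78, and its relative Nr5a1 10, each with 0 in the others. Lhcgr, the luteinizing hormone receptor, had 26 counts and Inha, the inhibin alpha chain, 16, again with 0 elsewhere. Prlr, the prolactin receptor, had 10, 0, 2 and 94 counts, and Greb1, an oestrogen-induced gene, 8, 0, 0 and 97. Prss35, a protease-like secreted protein, had 0.576, 0.630, 0.588 and 6.19 CPM and Sparc, a matrix protein, 0.937, 0.170, 1.19 and 5.51. The same library had the highest Hbb-bs, with 54.6 CPM. Alb, serum albumin of the liver, and Fshr had 0 counts in all 4. The part of other tissue in library 4 was not tested.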
